A study of Homo sapiens with 27 samples.

Results

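T47D cells that expressed the C321fs mutant of GATA3 were compared with T47D cells that carried the empty vector, by RNA-seq across all genes. The members were the 3 libraries titled C321fs and the 3 titled Empty, which are 6 of the 12 RNA-seq samples and of the 27 samples in the whole series. T47D is an established line of luminal breast cancer. Both lines were stable pools made with the pHAGE lentiviral vector and selected with puromycin: the C321fs pool expressed the mutant with a Ty1 epitope tag, and the Empty pool carried the vector alone. Both kept the wild-type GATA3 of T47D, so C321fs cells held the mutant beside the normal protein. The other 6 libraries came from a Splice pool (the X308 splice site deletion, called Splice del here) and an A333fs pool, made the same way with 3 libraries each. Each line was 1 pool, and the study calls its 3 libraries biological replicates without saying whether they came from separate cultures, so the p-values measure the spread between libraries, and an effect of the mutant cannot be told apart from other differences between the pools. The sample descriptions and the study's methods name different growth media for these cells, so the medium is not settled.

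GATA3 is a zinc finger transcription factor that luminal cells of the mammary gland need for their identity, and it acts with the estrogen receptor ESR1 and the pioneer factor FOXA1. It has a pair of zinc fingers. The second one binds the GATA motif in DNA, and a zinc ion held by cysteines gives it its fold. The cysteine named in C321fs lies in that second finger. A frameshift there changes the sequence that follows, and per the study an early stop codon truncates the protein. The reference sequence around the codon is shown because the mutant is defined by it. The codon, TGT, is at chr10:8069509-8069511 of hg38, in exon 5 of the GATA3 transcript when all exons are numbered. The 30 bases on each side (chr10:8069479-8069541, plus strand) are printed with the codon in capitals. The inserted or deleted bases of the mutant are not given by the labels and are not shown.
GATA3, codon of C321: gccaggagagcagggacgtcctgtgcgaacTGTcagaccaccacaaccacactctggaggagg

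The libraries held 28055843 to 35294988 counted fragments in the compared lines. A level is given below in CPM, the count scaled to a common library size with TMM factors, and levels are compared between libraries and not between genes. Fold changes are on the log2 scale, C321fs minus Empty, with the standard error of the fit. A call needed a fold change over 1.5 and an adjusted p below 0.01 in edgeR's quasi-likelihood test, adjusted by Benjamini-Hochberg over all 14789 genes tested. The luminal identity of the cells was visible in every line: the summed level of 14 luminal markers was 21804 to 25327 CPM in Empty and 16444 to 17121 CPM in C321fs, and KRT8, KRT18 and MUC1 among them were called lower in C321fs. The 9 basal markers summed to 22.1 to 24.6 CPM in Empty and 25.5 to 29.0 CPM in C321fs, with TP63 called higher. The 9 fibroblast markers summed to 53.6 to 65.1 and 41.3 to 50.2 CPM, with COL1A1 the highest of them and COL3A1 called lower. PDGFRA, PDGFRB, FAP and COL1A2 had at most 3 counts in every library. Of the 9 leukocyte markers, CD68 was the highest, and PTPRC, CD3E, CD3D and MS4A1 had at most 3 counts in every library. The sums were 5.36 to 7.41 and 6.18 to 7.07 CPM. The part of these markers in the results below was not tested.

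Replicate 1 of C321fs stood apart from the other C321fs libraries. On log2 CPM over all tested genes, its mean Euclidean distance to replicates 2 and 3 was 37.8, while the distance between those was 31.9. Distances within the Empty line were 33.8 to 34.8. Replicate 1 was also nearer to the Empty libraries, at 52.1 to 54.9, than replicates 2 (56.0 to 61.5) and 3 (56.4 to 62.5). By a chi-square per gene between libraries it differed from replicate 2 by 16.2 and from replicate 3 by 28.4, against 5.72 between replicates 2 and 3 and 5.85 to 8.52 within Empty. Among well-expressed genes the largest excesses of replicate 1 were in structural RNAs: RNA28S5, a ribosomal RNA, was at 345, 116 and 77.7 CPM in the 3 C321fs libraries and 301, 178 and 208 CPM in Empty, whose exons overlap those of the ribosomal precursor RNA45S5, and RN7SL2, the RNA of the signal recognition particle, was at 31, 11.3 and 8.29 and 23.2, 12.3 and 13.6 CPM. The largest deficits were in IFIT1, MX1, SAMD9 and HIVEP2, of which the first 3 are interferon-induced genes. Its part in each result was measured by leaving it out.

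GC content also separated the lines. Per 10 percentage points of exonic GC content, log2 CPM changed by 0.124, 0.186 and 0.107 in the Empty libraries and by 0.013, -0.115 and -0.117 in the C321fs libraries. The mean slopes were 0.139 ± 0.042 and -0.073 ± 0.074 (SD, n = 3), so the groups did not overlap, and the exact permutation test gave p = 0.1 (two-sided), the smallest this design allows. The libraries of the other mutants had mean slopes of -0.079 in Splice del and -0.171 in A333fs. When the genes were split by GC content into 10 bins of equal size, in the bin with the lowest GC content (27.3% to 39.2%) the median log2 fold change was 0.33, and 155 genes were called higher and 1 lower. At the other end (62.5% to 87.9%) the median was -0.25, and 30 were called higher and 76 lower. Across the 14789 genes log2 fold change and GC content had a Spearman correlation of -0.55, a description over genes that share the same libraries. Without C321fs replicate 1 the correlation was -0.59. When each library's trend with GC content and length was taken out, 470 genes were called higher and 185 lower, of which 383 and 131 had been called so before. Values after this removal are given below for each named gene that lost its call and for lists in which a count against Empty moved by over 1.5 times. The part of GC content in any single result was not tested beyond this.

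**Figure D1:**
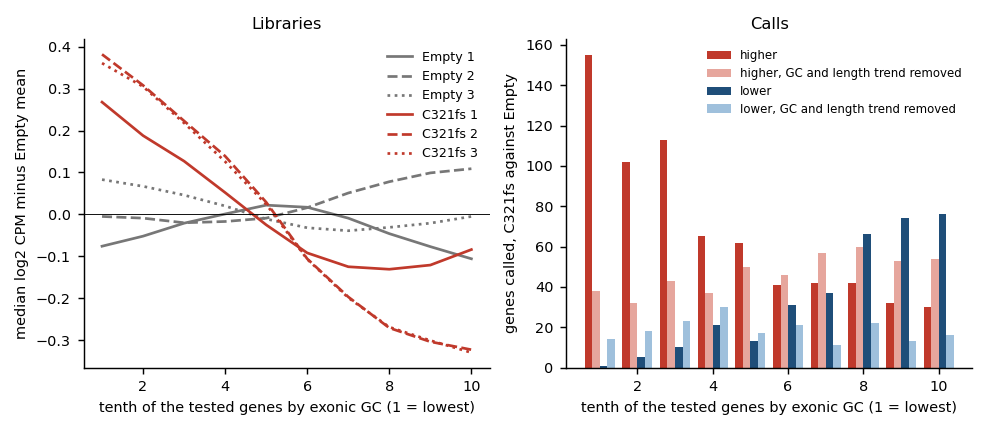
Left, the median log2 CPM of each Empty (grey) and C321fs (red) library minus the Empty mean, for 10 bins of the tested genes ordered by exonic GC content, with 1 line per library. Right, the number of genes called higher (red) or lower (blue) in C321fs in each bin, with the lighter bars giving the calls after the GC and length trend was removed. The line of C321fs replicate 1 is flatter than those of replicates 2 and 3, which fall to -0.32 and -0.33 in the last bin, and the calls shift from 155 higher in the first bin to 76 lower in the last.

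C321fs cells had 684 genes called higher (4.63% of the genes tested) and 334 called lower (2.26%). Increases were thus 67.2% of the calls, a share that rose to 86.3% with upper-quartile factors in place of TMM. With those factors ACTB, DLL1, KRT18, MCM2, MYC, RPLP0, SLC7A5 and TNS3, described below, were no longer called. With TMM factors and no minimum fold change the balance was reversed, with 2382 genes called higher and 3067 lower. Most changes were of moderate size: 430 of the increases and 287 of the decreases were under 2-fold, and 47 increases and 5 decreases were over 4-fold. The C321fs and Empty libraries did not overlap for 54.1% of all tested genes, and for 681 of the 684 increased and all 334 decreased genes. Without C321fs replicate 1 the test called 733 genes higher and 552 lower, and 584 and 296 of the original calls remained. Without Empty replicate 2, which had the steepest GC slope of the 6 C321fs and Empty libraries, 530 and 213 were called.

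GATA3 itself was not raised in the counts of C321fs cells. It was at 1247, 1339.7 and 1257 CPM in Empty and at 1142, 1130.2 and 1155 CPM in C321fs, a log2 fold change of -0.17 ± 0.05 (adjusted p = 0.013) that was not called. All 3 C321fs libraries lay below all 3 Empty libraries, and the groups did not overlap for 54.1% of all tested genes. The counts add the transcripts of the wild-type gene to any reads of the mutant that map to it, so they do not show the level of the mutant and are no check of the labels. ESR1, the estrogen receptor, was at 219, 209 and 234 CPM in Empty and 201, 223 and 232 CPM in C321fs, with overlapping libraries (log2 fold change -0.01 ± 0.06, adjusted p = 0.87). FOXA1 was at 466, 493 and 474 and 383, 384 and 394 CPM, -0.30 ± 0.04 on the log2 scale, short of the fold change limit although its libraries did not overlap and its adjusted p was 7.9e-05. For PGR, the progesterone receptor, the values were 1082, 1029 and 1209 CPM and 815, 968 and 1028 CPM (-0.24 ± 0.08, adjusted p = 0.022, not called). Over 33 luminal transcription factors and steroid receptors tested, 1 was called higher (3.03%, beside 4.63% of all genes) and 2 lower (6.06%, beside 2.26%). Their median was -0.17, against 0.02 over all genes. After removal of the GC trend these counts were 0 and 1, and with upper-quartile factors 2 and 1. RERG, a growth inhibitor that estrogen induces, rose from 48.9, 44.5 and 47.5 CPM to 79.8, 73.6 and 70.0 CPM (log2 fold change 0.67 ± 0.06, adjusted p = 2e-06), a call lost after removal of the GC trend (0.40). CITED1, a coactivator that works with ESR1, fell from 9.53, 11.6 and 10.3 CPM to 6.15, 4.99 and 5.18 CPM (-0.94 ± 0.10, adjusted p = 5.9e-06).

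Many interferon-stimulated genes rose in C321fs cells. Type I interferons signal through a complex of transcription factors that includes IRF9 and binds a motif in the promoters of antiviral genes and switches them on. Of 46 interferon-stimulated effectors tested, 22 were called higher and none lower, 42 had a positive log2 fold change, and the median was 0.78. That is 47.8% of the list called higher, beside 4.63% of all genes. Interferon sensors and regulators went the same way: 7 of 21 (33.3%) were called higher and none lower, with a median of 0.39. After removal of the GC trend the counts were 19 and 6. In bulk RNA a change in the share of responding cells and a change in the RNA of each cell cannot be told apart.

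The level of the response differed between the C321fs libraries. IFIT1, which binds foreign RNA that lacks a host cap, was at 2.88, 2.98 and 2.78 CPM in Empty and at 8.68, 14.6 and 27.7 CPM in C321fs, so every C321fs library was above every Empty library, and replicate 3 was far above replicate 1. The log2 fold change was 2.56 ± 0.32 (adjusted p = 1.9e-05). IFI6, a mitochondrial and endoplasmic reticulum protein that inhibits flavivirus replication, rose from 13.9, 10.4 and 12.2 CPM to 42.1, 45 and 71.7 CPM (2.12 ± 0.24, adjusted p = 8.5e-06). MX1, a dynamin-like GTPase that blocks viral nucleocapsids, rose from 24.5, 24.3 and 26 CPM to 47.4, 70.0 and 115 CPM (1.64 ± 0.21, adjusted p = 2.2e-05). C321fs replicate 1 was the lowest of the 3 C321fs libraries in 21 of the 22 called effectors, and over all genes called higher it was nearest to Empty in 330 of 684. Relative to the mean of Empty, the list's median was 0.48, 0.77 and 0.93 in C321fs replicates 1, 2 and 3, and -0.04 to 0.05 in the Empty libraries. Without replicate 1, 26 effectors were called higher, and without replicate 3, 18 were, with a median log2 fold change of 0.57.

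Further effectors were called. ISG15, a ubiquitin-like modifier, was at 2.68, 2.73 and 3.58 CPM in Empty and 7.31, 9.33 and 11.9 CPM in C321fs (1.67 ± 0.19, adjusted p = 9.3e-06). IFITM1, which hinders the entry of viruses, was at 10.7, 12.3 and 10.5 and 23.4, 23.5 and 32.2 CPM (1.24 ± 0.12, adjusted p = 1.6e-06). IFI27 was low in Empty, at 1.26, 0.577 and 1.18 CPM, and reached 6.18, 7.63 and 11.4 CPM (3.07 ± 0.37, adjusted p = 1.4e-05). XAF1, a partner of the apoptosis inhibitor XIAP, was near the limit of detection at 0.17, 0 and 0.104 CPM in Empty and at 0.213, 0.52 and 1.62 CPM in C321fs. Its log2 fold change of 3.07 ± 0.79 (adjusted p = 0.0046) was no longer called without C321fs replicate 3 (1.95, adjusted p = 0.034), Empty replicate 2 (2.47, adjusted p = 0.027) or Empty replicate 3 (3.18, adjusted p = 0.016).

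Among the regulators, IRF9, the DNA-binding subunit of the interferon-activated complex, rose from 8.18, 8.66 and 8.68 CPM to 21.2, 24.6 and 30.3 CPM (1.57 ± 0.12, adjusted p = 3.7e-07). IRF7, which drives the interferon genes themselves, was at 7.09, 6.96 and 7.15 CPM and 11.5, 11.3 and 15.4 CPM (0.85 ± 0.12, adjusted p = 6.7e-05). The sensor of long double-stranded RNA, IFIH1, was at 13.3, 13.5 and 16.2 CPM in Empty and 19.6, 24.2 and 29.6 CPM in C321fs (0.77 ± 0.12, adjusted p = 0.00014), and after removal of the GC trend its log2 fold change was 0.55 and not called. DHX58, a related RNA helicase, rose from 10.1, 9.75 and 8.51 CPM to 15.5, 13.9 and 17 CPM (0.71 ± 0.10, adjusted p = 4.1e-05). Antigen presentation by MHC class I, also interferon-responsive, gave a single call: 1 of 19 genes was called higher (5.26%, beside 4.63% of all genes). This was HLA-F, at 4.27, 4.46 and 3.26 CPM and 6.94, 6.69 and 6.35 CPM (0.73 ± 0.12, adjusted p = 0.00019). In this list 2 were called without C321fs replicate 1, Empty replicate 3 or A333fs replicate 2. After removal of the GC trend or with upper-quartile factors 3 were called. The exons of HLA-F overlap those of HLA-H and of an antisense gene, and fragments in the shared parts were left out. HLA-F is also annotated on 7 sequences of the assembly, and fragments that map to several places were left out, so its level is uncertain.

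Promoters of these genes were searched because they moved together. The window ran from 250 bases before to 50 after the start site in RefSeq GRCh38.p14, and 11472 of the tested genes, 35 of the 46 effectors among them, had an entry. The core of the interferon-stimulated response element, searched as GAAA, any 2 bases and GAAA, was found on either strand in 2.64% of the windows of tested genes and in 23 of the 35 effector windows (65.7%). It was in 12 of the 17 windows of called effectors (70.6%) and in 11 of the 18 of effectors that were not called (61.1%), shares that lay within 10 percentage points of each other. Over all genes called higher the share was 7.45% (35 of 470 windows), and over those called lower 2.04%. The 35 windows include the 12 of called effectors, so the 7.45% is in part the same list counted again. The windows below are those of the 4 called effectors with the largest fold change that hold the motif, read along the gene, with the match nearest the start site in capitals (TTTC on both sides is the motif on the other strand).
IFI27, chr14:94110616-94110675, plus strand: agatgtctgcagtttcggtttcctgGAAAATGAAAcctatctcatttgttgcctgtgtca
IFIT1, chr10:89392495-89392554, plus strand: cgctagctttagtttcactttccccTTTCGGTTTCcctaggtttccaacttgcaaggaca
IFI6, chr1:27672251-27672310, minus strand: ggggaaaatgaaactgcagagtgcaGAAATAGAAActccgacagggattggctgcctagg
IFIT3, chr10:89327850-89327909, plus strand: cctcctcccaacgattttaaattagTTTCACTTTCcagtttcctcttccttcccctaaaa
These matches start 95, 103, 93 and 122 bases before the start site.

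**Figure D2:**
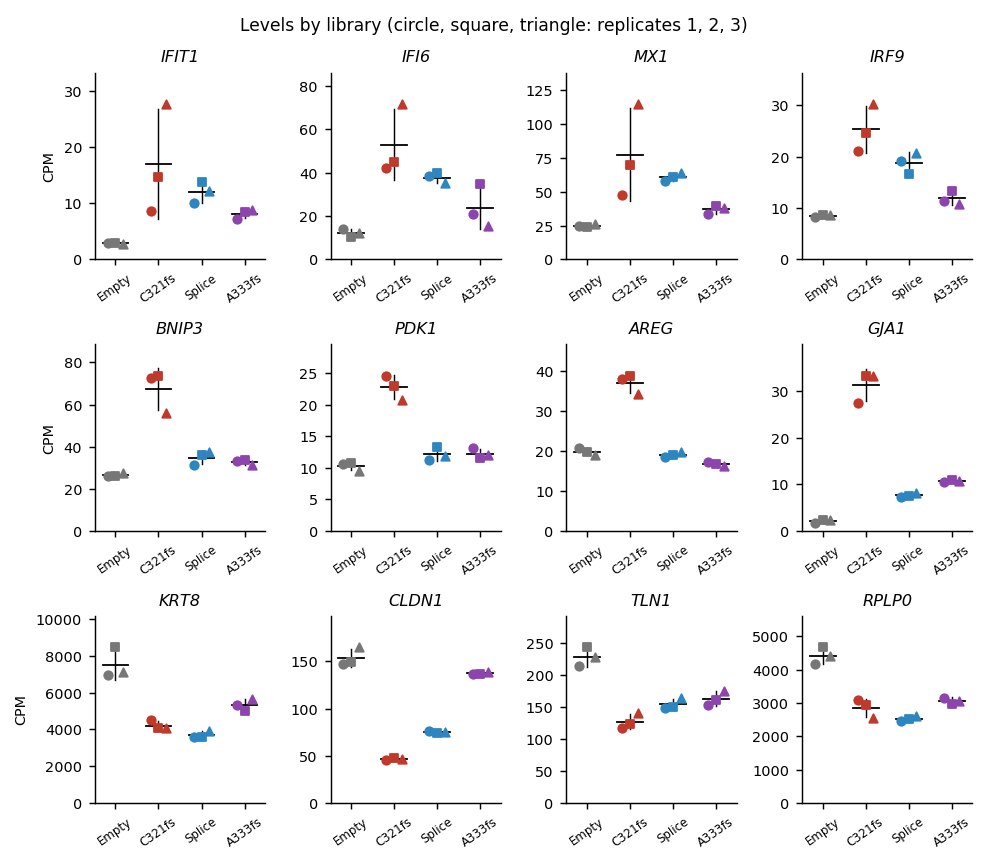
Level in CPM (linear axis from 0) of 12 genes in each library of the 4 lines, with circles, squares and triangles for replicates 1, 2 and 3, the horizontal bar for the mean and the vertical bar for the SD (n = 3). In C321fs, IFIT1, IFI6 and MX1 are lowest in replicate 1 and highest in replicate 3, BNIP3, PDK1, AREG and GJA1 stand above all other lines, and CLDN1 stands below them.

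Some genes of the hypoxia response rose in C321fs cells. In low oxygen the factor HIF1A escapes degradation and activates genes of glycolysis, vessel growth and mitochondrial turnover. Of 46 genes of hypoxia and glycolysis tested, 13 were called higher (28.3%, beside 4.63% of all genes) and 2 lower (4.35%, beside 2.26%). The median was 0.19. The decreases were 1 without C321fs replicate 1 or without Empty replicate 2, and after removal of the GC trend 12 were called higher and 1 lower. CA9, a carbonic anhydrase at the cell surface and a classical HIF target, was at 0.0339, 0 and 0 CPM in Empty and 1.67, 1.18 and 0.454 CPM in C321fs. With at most 3 counts in every Empty library, it was at least 10.9-fold higher in C321fs (floor of 3 counts per library, adjusted p = 4.5e-05). BNIP3, a receptor for the removal of mitochondria, rose from 25.9, 26.1 and 27.4 CPM to 72.4, 73.8 and 55.8 CPM (1.35 ± 0.10, adjusted p = 1.4e-07). PDK1, which keeps pyruvate out of the mitochondria, was at 10.6, 10.7 and 9.55 CPM in Empty and 24.6, 22.9 and 20.8 CPM in C321fs (1.14 ± 0.09, adjusted p = 3.4e-07). The C321fs libraries did not overlap Empty for either gene, as for 54.1% of all tested genes.

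P4HA1, a prolyl hydroxylase of collagen, rose from 27.6, 29.8 and 30.3 CPM to 49.7, 52.2 and 51.9 CPM (0.81 ± 0.06, adjusted p = 3.3e-07), a call lost after removal of the GC trend (0.53). DDIT4, an inhibitor of mTORC1 that hypoxia and other stresses induce, was at 35.7, 34.2 and 31.3 CPM and 80.7, 69.8 and 57.7 CPM (1.04 ± 0.10, adjusted p = 2e-06). LOX, which crosslinks collagen, rose from 0.441, 0.545 and 0.903 CPM to 1.86, 2.18 and 1.65 CPM (1.59 ± 0.24, adjusted p = 9.2e-05). EPAS1, which encodes the related factor HIF2A, went the other way, from 66.9, 67.7 and 67.8 CPM to 36.2, 40.8 and 40.3 CPM (-0.79 ± 0.06, adjusted p = 4.4e-07).

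The hypoxia list was also compared between C321fs and the other mutants. In the contrast of C321fs against the mean of Splice del and A333fs, in which the Empty libraries enter only through the shared estimate of the spread, 11 of its 46 genes were called higher in C321fs and 2 lower, with a median of 0.35, beside 1.6% of all tested genes called higher and 2.01% called lower. BNIP3 was at 31.2, 36.1 and 37.3 CPM in Splice del and 33.4, 33.7 and 31.3 CPM in A333fs, a difference of 0.99 ± 0.08 on the log2 scale (adjusted p = 1.6e-07). PDK1 was at 11.3, 13.3 and 11.8 and 13.1, 11.5 and 12 CPM there (0.90 ± 0.07, adjusted p = 2.3e-07). CA9 was at 0.31, 0.325 and 0.0697 CPM in Splice del and 0.129, 0.223 and 0.147 CPM in A333fs (2.43 ± 0.40, adjusted p = 0.00045), so its C321fs libraries lay above all others. EPAS1 was at 55.9, 58.7 and 62 CPM and 112, 116 and 124 CPM (-1.09 ± 0.06, adjusted p = 9.9e-10). For the interferon effectors the same contrast called 4 higher and 2 lower of 46, 10 higher without C321fs replicate 1, and 2 higher without C321fs replicate 3, any of the 3 Splice del libraries, A333fs replicate 1 or Empty replicate 3.

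The motif ACGTG, a core of the hypoxia response element, was in 26.4% of the windows of tested genes on either strand, in 21 of the 41 windows of the hypoxia list (51.2%), in 6 of the 10 of its genes called higher (60.0%) and in 15 of the 29 of those not called (51.7%). The windows of the 4 called genes with the largest fold change that hold it are given with the match nearest the start site in capitals (CACGT is the motif on the other strand, and CACGTG holds both), to set the sequence beside the levels above.
CA9, chr9:35673885-35673927, plus strand: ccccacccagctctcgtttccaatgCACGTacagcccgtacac
LOX, chr5:122078272-122078326, minus strand: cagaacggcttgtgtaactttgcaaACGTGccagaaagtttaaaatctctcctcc
BNIP3, chr10:131982027-131982081, minus strand: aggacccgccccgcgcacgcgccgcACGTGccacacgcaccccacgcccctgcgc
DDIT4, chr10:72273774-72273828, plus strand: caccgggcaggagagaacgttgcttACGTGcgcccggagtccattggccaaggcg

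**Figure D3:**
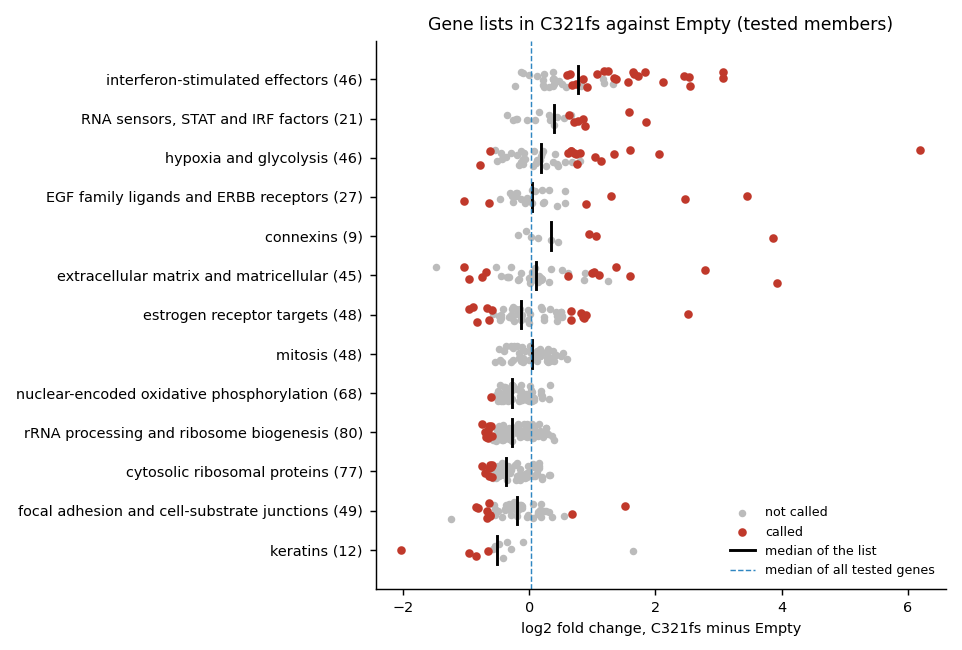
Log2 fold change of every tested member of 13 gene lists, C321fs minus Empty (number tested in brackets), with called genes in red, other genes in grey, a black bar at the list's median and a dashed line at the median of all tested genes (0.02). Most interferon effectors lie to the right of the dashed line, with a median of 0.78, and most ribosomal proteins and keratins to the left, with medians of -0.36 and -0.51.

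Connexins, the subunits of gap junctions, rose in part. GJA1, which encodes connexin 43 at chr6:121435577-121449744, rose from 1.7, 2.37 and 2.4 CPM to 27.4, 33.3 and 33.3 CPM, with no C321fs library near an Empty library (3.86 ± 0.12, adjusted p = 9.2e-12). It was also above Splice del (7.35, 7.56 and 8.15 CPM) and A333fs (10.6, 11 and 10.7 CPM), by 1.78 ± 0.08 on the log2 scale (adjusted p = 2e-10). GJA3 rose from 1.15, 0.577 and 0.799 CPM to 1.83, 1.49 and 1.94 CPM (1.06 ± 0.23, adjusted p = 0.0012). Together 3 of 9 connexins tested were called higher (33.3%, beside 4.63% of all genes) and none lower. Without C321fs replicate 1, 2 were called higher, and the median fell from 0.34 to 0.11. The remaining call, GJC3, rose from 1.12, 0.706 and 0.625 CPM to 1.77, 1.56 and 1.39 CPM (0.95 ± 0.24, adjusted p = 0.0039). That call was lost without Empty replicate 2 or 3 or C321fs replicate 1 or 2 (adjusted p = 0.013 to 0.023).

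Some ligands of the EGF receptor family rose. Of 27 ligands, receptors and related genes tested, 4 were called higher (14.8%, beside 4.63% of all genes) and 2 lower (7.41%, beside 2.26%). The median was 0.04. The decreases were 1 without Empty replicate 1 and after removal of the GC trend. AREG, amphiregulin, which estrogen induces and the mammary ducts need for growth, went from 20.9, 19.7 and 19 CPM to 38.1, 38.9 and 34.2 CPM (0.90 ± 0.07, adjusted p = 2.3e-07). In Splice del and A333fs AREG was at 18.5, 19 and 19.7 CPM and 17.4, 16.8 and 16.3 CPM, so C321fs was the highest line (1.05 ± 0.06 against the other mutants, adjusted p = 1.2e-09). EREG, epiregulin, rose from 0.204, 0.224 and 0.104 CPM to 0.883, 1.08 and 1.07 CPM (2.47 ± 0.34, adjusted p = 3.6e-05). EPGN, epigen, had at most 3 counts in each Empty library and was at 0.487, 0.59 and 0.518 CPM in C321fs, at least 5.28-fold higher (adjusted p = 7.3e-05). IGFBP5, a secreted binding protein of insulin-like growth factors, fell from 2158, 2245 and 2158 CPM to 994, 1078 and 1118 CPM (-1.04 ± 0.06, adjusted p = 1.8e-08).

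Genes of the extracellular matrix changed in both directions. Of 45 tested, 8 were called higher (17.8%, beside 4.63% of all genes) and 4 lower (8.89%, beside 2.26%), with a median of 0.11. The median was 0.04 without Empty replicate 1, 0.02 without C321fs replicate 3 and 0.23 after removal of the GC trend, where 2 were called lower. SPARC, a secreted collagen-binding protein, rose from 0.204, 0.257 and 0.278 CPM to 1.77, 1.63 and 1.78 CPM (2.79 ± 0.22, adjusted p = 3.4e-07). The level stayed below that in Splice del (6.61, 7.3 and 8.11 CPM) and A333fs (11.8, 11.6 and 12.4 CPM). The exons of SPARC and COL3A1 each overlap another annotated gene. COL12A1 fell from 162, 141 and 153 CPM to 66, 73.6 and 95.8 CPM (-0.95 ± 0.11, adjusted p = 7.5e-06), as did AGRN, agrin, from 641, 758 and 719 CPM to 439, 405 and 478 CPM (-0.68 ± 0.08, adjusted p = 1e-05), a call lost after removal of the GC trend (-0.44). COL3A1 fell from 4.95, 5.07 and 5.38 CPM to 2.44, 2.29 and 2.82 CPM (-1.03 ± 0.13, adjusted p = 2.2e-05).

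Markers of epithelial-to-mesenchymal transition (EMT) were called in 3 cases. Of 16 EMT factors and mesenchymal markers tested, 2 were called higher (12.5%, beside 4.63% of all genes) and 1 lower (6.25%, beside 2.26%), and 2 were lower after removal of the GC trend. Without Empty replicate 1 or C321fs replicate 2 none was called higher, without Empty replicate 3 1 was, and without C321fs replicate 3 2 were called lower. VIM, the intermediate filament vimentin, was at 2.61, 2.98 and 3.47 CPM in Empty and 4.17, 5.17 and 4.83 CPM in C321fs (0.64 ± 0.13, adjusted p = 0.001), and the call was lost without Empty replicate 1 (0.55, adjusted p = 0.0071) and without C321fs replicate 2 (0.57, adjusted p = 0.0072). Its exons overlap those of an antisense gene. In Splice del VIM was at 8.23, 8.57 and 8.22 CPM and in A333fs at 10.4, 8.87 and 8.25 CPM, above C321fs (-0.89 ± 0.10, adjusted p = 1.1e-05). MEF2C, a muscle and endothelial transcription factor that also overlaps an antisense gene, was at 0.136, 0.257 and 0.208 and 0.457, 1.01 and 0.68 CPM (1.79 ± 0.44, adjusted p = 0.0033), and was not called without Empty replicate 1 (1.58, adjusted p = 0.018), Empty replicate 3 (1.81, adjusted p = 0.011) or C321fs replicate 2 (1.47, adjusted p = 0.022). KCNMA1, a potassium channel, fell from 22.9, 24.1 and 23.5 CPM to 13.8, 13.5 and 13.4 CPM (-0.80 ± 0.07, adjusted p = 7.9e-07). TWIST1, an EMT factor, was at 1.26, 1.25 and 1.28 CPM and 1.4, 1.28 and 1.68 CPM (0.21 ± 0.18, adjusted p = 0.36). ZEB1, another EMT factor, had 0 to 2 counts per Empty library and 0 to 1 per C321fs library and was not tested. CDH1, E-cadherin, was at 486, 508 and 475 CPM in Empty and 439, 453 and 502 CPM in C321fs, with overlapping libraries (-0.07 ± 0.07, adjusted p = 0.42). None of 24 genes that guard the epithelial state was called by edgeR or by DESeq2 with all libraries, while 8 had an unadjusted p below 0.05 and a higher level and 9 a lower one. Without Empty replicate 1, Empty replicate 3 or C321fs replicate 3 edgeR called 1 lower.

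Some keratins and adhesion genes fell. Keratins 8 and 18 pair in the filaments of luminal cells. Of 12 keratins tested, 4 were called lower (33.3%, beside 2.26% of all genes) and none higher. The median was -0.51, and 1 had a positive log2 fold change. KRT8 went from 6957, 8479 and 7118 CPM to 4498, 4064 and 4067 CPM (-0.84 ± 0.08, adjusted p = 1.9e-06). In Splice del KRT8 was at 3566, 3602 and 3923 CPM, below C321fs, and in A333fs at 5327, 5019 and 5664 CPM, above it. KRT18 was at 2437, 2938 and 2468 CPM and 1663, 1685 and 1637 CPM (-0.65 ± 0.07, adjusted p = 4e-06), a call lost after removal of the GC trend (-0.48) and without Empty replicate 2 (-0.56, adjusted p = 1e-05). The exons of KRT8 and KRT18 overlap in the annotation, and fragments in the shared part were left out. KRT4 fell from 3.39, 4.14 and 3.33 CPM to 0.761, 1.14 and 0.778 CPM (-2.03 ± 0.17, adjusted p = 5.7e-07). CLDN1, claudin 1 of the tight junction, fell from 147, 149 and 165 CPM to 45, 47.9 and 46.1 CPM (-1.73 ± 0.06, adjusted p = 1e-11), and Splice del (75.9, 74.5 and 74.7 CPM) and A333fs (137, 137 and 139 CPM) lay above C321fs. It was the only decrease called among 38 tight junction and polarity genes (2.63%), of which 1 rose (2.63%, beside 4.63% of all genes). Without C321fs replicate 1 the decreases were 2. The gene that rose, JAM2, a junctional adhesion molecule, lost its call without Empty replicate 1 (0.65, adjusted p = 0.015), without C321fs replicate 1 (0.68, adjusted p = 0.01) and after removal of the GC trend (0.64).

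Focal adhesions link integrins to actin through adaptors such as talin. Of 49 genes of focal adhesions and cell-substrate junctions tested, 7 were called lower (14.3%, beside 2.26% of all genes) and 2 higher (4.08%, beside 4.63%), with a median of -0.19. TLN1, talin, fell from 214, 244 and 228 CPM to 118, 123 and 141 CPM (-0.84 ± 0.07, adjusted p = 1e-06), and its exons overlap those of CREB3 and of a microRNA. TNS3, a tensin, was at 81.8, 81.8 and 84.8 CPM and 48.8, 53.7 and 56.8 CPM (-0.64 ± 0.06, adjusted p = 2.2e-06), a call lost after removal of the GC trend (-0.46). ITGB6, an integrin subunit that activates TGF-beta, rose from 1.29, 1.31 and 1.35 CPM to 3.38, 3.61 and 4.34 CPM (1.51 ± 0.16, adjusted p = 5.6e-06). The decreases were 3 after removal of the GC trend and 2 with upper-quartile factors. The increases were 1 after removal of the GC trend and without Empty replicate 2, Empty replicate 3, C321fs replicate 2 or C321fs replicate 3. ACTB, cytoplasmic actin, which is often used as a reference gene, fell from 6473, 7830.0 and 6680.1 CPM to 4549, 4650.0 and 4409 CPM (-0.62 ± 0.07, adjusted p = 9.6e-06). Its call was lost after removal of the GC trend (-0.53) and without Empty replicate 2 (-0.54, adjusted p = 3.3e-05).

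Some genes of ribosome production fell in C321fs. Of 80 genes of rRNA processing and ribosome biogenesis tested, 9 were called lower (11.2%, beside 2.26% of all genes) and none higher, 18 had a positive log2 fold change, and the median was -0.28. Of 77 cytosolic ribosomal proteins, 9 were called lower (11.7%) and none higher, 14 had a positive log2 fold change, and the median was -0.36. The medians stayed negative after removal of the GC trend (-0.25 and -0.29) and with upper-quartile factors (-0.20 and -0.28), but the counts of decreases fell to 1 and 5 and to 3 and 2. Single libraries also moved the counts: the ribosomal proteins had 21 decreases without C321fs replicate 1, 1 without C321fs replicate 3 and 4 without Empty replicate 2, and ribosome biogenesis had 4 without Empty replicate 2. Median levels of the ribosomal proteins relative to Empty were -0.20, -0.32 and -0.53 in C321fs replicates 1, 2 and 3. In Splice del they were -0.58, -0.52 and -0.46, and in A333fs -0.17, -0.24 and -0.22. Against the mean of the other mutants neither list had a call, with medians of 0.055 for ribosome biogenesis and 0.022 for ribosomal proteins.

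RPLP0, a protein of the ribosomal stalk, was at 4174, 4676 and 4413 CPM in Empty and 3079, 2929.9 and 2558 CPM in C321fs (-0.63 ± 0.07, adjusted p = 6.5e-06), and its call was lost after removal of the GC trend (-0.52) and without C321fs replicate 3 (-0.56, adjusted p = 1.2e-05). RRP12, which exports and matures ribosomal subunits, fell from 158, 189.6 and 165 CPM to 98.4, 96.9 and 108 CPM (-0.76 ± 0.08, adjusted p = 3.4e-06). MYC, which drives ribosome production, fell from 123, 138 and 124 CPM to 82.5, 81.8 and 80.1 CPM (-0.66 ± 0.06, adjusted p = 6.5e-07), and after removal of the GC trend its log2 fold change was -0.58 and not called. The libraries did not overlap for any of these 3 genes, as for 54.1% of all tested genes. Ribosomal protein genes have many near-identical pseudogenes, and fragments that map to several places were left out of the counts, so their levels are uncertain.

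**Figure D4:**
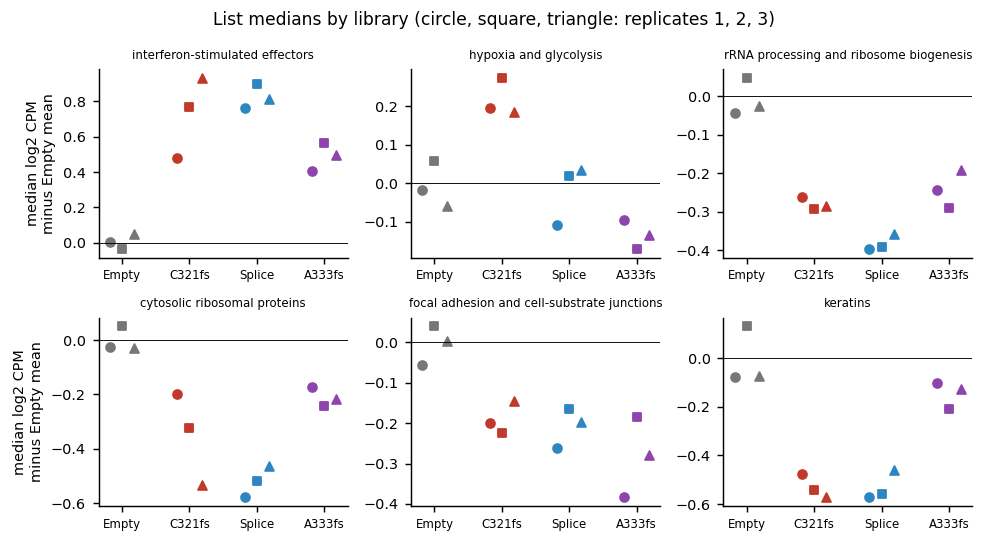
Median log2 CPM of the tested members of 6 gene lists in each library, relative to the Empty mean, with circles, squares and triangles for replicates 1, 2 and 3 of each line. The interferon effectors in C321fs range from 0.48 in replicate 1 to 0.93 in replicate 3, the ribosomal proteins from -0.20 to -0.53, and the hypoxia list is above 0.18 in every C321fs library and below 0.06 in every other library.

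Estrogen-responsive and secretory genes moved both ways. Of 48 estrogen receptor targets, 7 were called higher (14.6%, beside 4.63% of all genes) and 6 lower (12.5%, beside 2.26%). Their median was -0.13, and with upper-quartile factors the counts were 11 and 3. HSPB8, a small heat shock protein, fell from 66.7, 72.2 and 65.4 CPM to 36.2, 37.4 and 37 CPM (-0.89 ± 0.06, adjusted p = 7.9e-08). SLC7A5, the light chain of a leucine transporter, fell from 522, 598 and 563 CPM to 366, 352 and 359.7 CPM (-0.64 ± 0.06, adjusted p = 1.1e-06), a call lost after removal of the GC trend (-0.46). The mammary secretory and apocrine list had 4 of 20 genes called higher and 3 lower. PIP, an apocrine secretion, rose from 79.1, 85.7 and 77 CPM to 200.4, 195 and 177 CPM (1.24 ± 0.06, adjusted p = 1.8e-09), and AZGP1, a secreted glycoprotein, rose from 94.4, 91.1 and 79.4 CPM to 167, 158 and 156 CPM (0.86 ± 0.06, adjusted p = 2.1e-07). MUC1, a mucin of the apical surface, fell from 336, 423 and 359 CPM to 181, 182 and 216 CPM (-0.95 ± 0.11, adjusted p = 1.1e-05). FASN, fatty acid synthase, fell from 2316, 2585 and 2522 CPM to 1203, 1077 and 1259.9 CPM (-1.07 ± 0.09, adjusted p = 4.8e-07).

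Signalling genes gave smaller groups of calls. CXCR4, a chemokine receptor, rose from 0.577, 0.353 and 0.59 CPM to 2.37, 3.05 and 2.4 CPM (2.36 ± 0.22, adjusted p = 1.6e-06), and CCL28, an epithelial chemokine, fell from 14.5, 15.1 and 14.3 CPM to 7.46, 7.32 and 6.97 CPM (-1.01 ± 0.08, adjusted p = 3.6e-07). These belong to a list of 32 NF-kappaB feedback genes and chemokines. It had 5 increases (15.6%, beside 4.63% of all genes) and 2 decreases (6.25%, beside 2.26%). The decreases were 1 without Empty replicate 2, without C321fs replicate 2 or after removal of the GC trend. MSX2, a homeobox factor downstream of BMP, fell from 83.8, 89 and 80.0 CPM to 43, 39.1 and 39.3 CPM (-1.06 ± 0.06, adjusted p = 1.3e-08). PHLDA1, an early response gene, fell from 74.3, 75.6 and 72.2 CPM to 42.4, 41.3 and 37.6 CPM (-0.87 ± 0.06, adjusted p = 5.1e-08). SEMA3C, a secreted semaphorin, rose from 222, 237 and 245 CPM to 399, 458 and 486 CPM (0.93 ± 0.08, adjusted p = 8.5e-07), and EFNA5, an ephrin, fell from 25.8, 26.4 and 26.3 CPM to 12.8, 11 and 13.2 CPM (-1.08 ± 0.08, adjusted p = 1.9e-07). SOX6, a transcription factor, whose exons overlap a microRNA, had the largest fitted decrease of the genes tested, from 3.6, 2.82 and 3.23 CPM to 0.304, 0.555 and 0.551 CPM (-2.78 ± 0.21, adjusted p = 3.4e-07).

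Proliferation and stress lists gave few calls. Over all genes 4.63% were called higher and 2.26% lower. None of 48 mitosis genes was called by edgeR or by DESeq2 with all libraries and TMM factors, with 14 higher and 15 lower at an unadjusted p below 0.05, and their median was 0.05, which became -0.12 after removal of the GC trend. With upper-quartile factors 2 were called higher. PLK1, a mitotic kinase whose exons overlap ERN2, was at 271, 312 and 264 CPM in Empty and 197, 188 and 194 CPM in C321fs (-0.55 ± 0.06, adjusted p = 8.3e-06), and was called lower without Empty replicate 3. Of 50 replication genes only MCM2 was called, a subunit of the replicative helicase, from 454, 519 and 443 CPM to 299.7, 303 and 311 CPM (-0.63 ± 0.06, adjusted p = 2.6e-06), and 3 were called without Empty replicate 1 and 2 without C321fs replicate 1. The call of MCM2 was lost without Empty replicate 2 (-0.56, adjusted p = 1.1e-05) and after removal of the GC trend (-0.50). None of 32 chaperones and genes of the unfolded protein response was called by edgeR or by DESeq2, with 8 higher and 8 lower at an unadjusted p below 0.05, and 1 was called higher without Empty replicate 1, without C321fs replicate 1 or with upper-quartile factors. Of 68 nuclear-encoded genes of oxidative phosphorylation 1 was called lower, with a median of -0.27. The decreases were 2 after removal of the GC trend, 10 without C321fs replicate 1 and none without C321fs replicate 3 or Empty replicate 2.

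The other lists had calls in both directions or in few members, while 4.63% of all genes were called higher and 2.26% lower. Of 42 amino acid transporters and ATF4 targets, which respond to amino acid shortage, 3 were called higher and 4 lower, with 2 lower without Empty replicate 2 and none after removal of the GC trend. Of 20 tRNA synthetases 2 were called lower, 1 without Empty replicate 2 or C321fs replicate 1, and none after removal of the GC trend. Cholesterol and fatty acid synthesis had 2 of 36 genes called higher and 1 lower, with 1 higher without Empty replicate 2 or C321fs replicate 3 or after removal of the GC trend and 2 lower without C321fs replicate 1. Adherens junctions and desmosomes had 1 of 22 called in each direction, and without single libraries or the GC trend either count ranged from 0 to 2. Of 31 Notch genes 2 were called higher and 1 lower, of 46 genes of TGF-beta, activin and BMP 2 in each direction (4.35%, beside 4.63% of all genes called higher and 2.26% lower), and of 36 AP-1 and immediate early genes 3 higher and 4 lower. The Notch increases were 1 without C321fs replicate 3, the TGF-beta list had 4 higher and 3 lower after removal of the GC trend and 4 higher with upper-quartile factors, and the AP-1 decreases were 1 after removal of the GC trend. The Notch gene that fell, DLL1, a ligand, lost its call without Empty replicate 1 (-0.54), Empty replicate 2 (-0.57) or C321fs replicate 3 (-0.52) and after removal of the GC trend (-0.41). Of 25 YAP and TEAD targets 1 was called higher and 2 lower, and the increase was lost without any of 9 of the 12 libraries. Axon guidance had 5 of 53 genes called higher, 3 without Empty replicate 3 or C321fs replicate 1, and 3 lower. Of 24 genes of the aryl hydrocarbon receptor and xenobiotic enzymes 2 were called higher and 3 lower, and of 9 SOX factors SOX6 alone was called.

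Other large changes stood outside these groups. GNAT3, a G protein subunit of taste signalling, was at 0.0339, 0.128 and 0.0347 CPM in Empty and 2.95, 2.67 and 3.4 CPM in C321fs (5.41 ± 0.37, adjusted p = 1e-07). THRSP, a regulator of lipid synthesis whose exons overlap NDUFC2, rose from 0.102, 0.289 and 0.174 CPM to 2.19, 2.39 and 1.72 CPM (3.44 ± 0.32, adjusted p = 1.6e-06). CXCL14, a chemokine of epithelia, had at most 3 counts in each Empty library and was at 1.1, 1.18 and 0.713 CPM in C321fs, at least 9.89-fold higher (adjusted p = 6.7e-06). TGM2, tissue transglutaminase, fell from 1.97, 2.95 and 3.09 CPM to 0.609, 0.659 and 0.648 CPM (-2.06 ± 0.24, adjusted p = 9.6e-06). CRYM, a thyroid hormone-binding protein, fell from 0.577, 0.673 and 0.66 CPM to 0.213, 0.0347 and 0.162 CPM (-2.15 ± 0.42, adjusted p = 0.00062).

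C321fs was also compared with the other mutants to find where it differed from them, a comparison that uses the same C321fs libraries. Against the mean of Splice del and A333fs, 236 genes were called higher (1.6%) and 297 lower (2.01%). CD36, a fatty acid translocase, had the smallest adjusted p among the increases: it was at 19.8, 21.4 and 23.3 CPM in C321fs, 4.23, 4.17 and 3.94 CPM in Splice del, 8.68, 8.97 and 7.98 CPM in A333fs and 2.27, 2.6 and 3.13 CPM in Empty (1.86 ± 0.08 against the mutants, adjusted p = 1.6e-10). DOK7, an adaptor of the muscle synapse, was at 33.8, 28.7 and 26 CPM, 10.5, 11.2 and 11.4 CPM, 9.49, 9.83 and 10.7 CPM and 18.2, 20.6 and 18.9 CPM in the same order (1.49 ± 0.08, adjusted p = 9.3e-10). Against Empty the call of DOK7 was lost without Empty replicate 1 (0.58, adjusted p = 0.00048) and without C321fs replicate 1 (0.51, adjusted p = 6.6e-05). For CD36, GJA1 and DOK7 the C321fs libraries lay above those of all other lines. DUSP4, a phosphatase of MAP kinases, was at 129, 128 and 126 CPM in C321fs and 135, 136 and 133 CPM in Empty, against 89.6, 86.4 and 92 CPM and 54.1, 53.3 and 55 CPM in the mutants (0.88 ± 0.04, adjusted p = 2.6e-10). Its C321fs libraries lay just below those of Empty (-0.08 ± 0.05, adjusted p = 0.18).

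Among the decreases, CDC42EP3, an effector of CDC42 that organizes actin and septins, was at 12.5, 15 and 12.5 CPM in C321fs and 30.5, 30.8 and 32.7 CPM in Empty, but 62.4, 59.9 and 61.9 CPM in Splice del and 62.3, 65.6 and 62.9 CPM in A333fs (-2.23 ± 0.07 against the mutants, adjusted p = 4.4e-12). C321fs thus lay below Empty and the other mutants above it. NTN4, a netrin of the basement membrane, was at 19.8, 22.1 and 19.9 CPM in C321fs and 19.8, 20.3 and 22.1 CPM in Empty, against 57.6, 55.2 and 54.2 CPM and 81.5, 87 and 81.8 CPM (-1.73 ± 0.06, adjusted p = 1e-11). RCAN1, a calcineurin inhibitor, was at 93.3, 102 and 98.6 CPM in C321fs and 111, 109.8 and 115 CPM in Empty, against 183, 186 and 180.4 CPM in Splice del and 349.8, 341 and 339 CPM in A333fs (-1.36 ± 0.04, adjusted p = 9.3e-12). DCN, decorin, a matrix proteoglycan, had at most 3 counts in every C321fs and Empty library and was at 5.57, 6.65 and 5.71 CPM in Splice del and 12.4, 13.4 and 11.1 CPM in A333fs, so that it was at least 93.6-fold lower in C321fs than in the other mutants (floor of 3 counts per library).

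**Figure D5:**
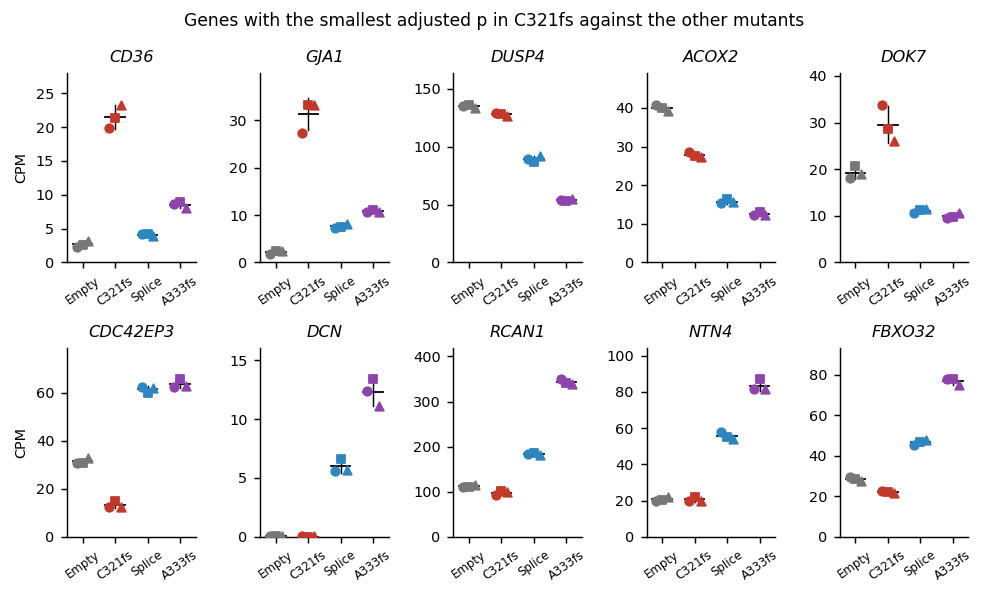
Level in CPM (linear axis from 0) of the 5 genes called higher and the 5 called lower in C321fs against the other mutants with the smallest adjusted p, in each library of the 4 lines, with circles, squares and triangles for replicates 1, 2 and 3, the horizontal bar for the mean and the vertical bar for the SD (n = 3). CD36, GJA1 and DOK7 are highest in C321fs, DUSP4, RCAN1 and NTN4 in C321fs lie nearer to Empty than to the other mutants, and CDC42EP3 is lowest in C321fs.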

How the data were processed

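Raw fragment counts per gene were used as deposited by the authors. Per the labels, the file header and the study's methods, the authors prepared libraries with a NEBNext Ultra II kit, sequenced them in 1 lane, trimmed the reads, mapped them to hg38 and counted fragments per gene with featureCounts 1.6.4, without a strand setting and without fragments that map to several places or genes. The submitters' notes name HISAT2 while the header points to a STAR folder, so the aligner is not settled.

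Counts of 26485 genes in 12 libraries were fitted together with edgeR 4.0.16 (R 4.3.3): TMM factors, filterByExpr (14789 genes kept) and the quasi-likelihood test. Each adjusted p (Benjamini-Hochberg) in the report comes from this edgeR fit, except where a library is left out. Those come from the same edgeR steps run again without that library. Contrasts were C321fs minus Empty and C321fs minus the mean of the other mutants. Log2 CPM used a prior count of 2. GC and length trends were removed as loess offsets (span 0.3). A fold against a group with at most 3 counts in every library is a lower bound from 3 counts per library, which covers counting error only. The test was checked on simulated data. Alternatives were DESeq2 1.42.0, other scaling, filters and thresholds, the replicate block and each library left out.

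The genes compared, the 33 gene lists and the naming rule were chosen with earlier results of these data known. The rule took 11 fixed genes, the largest changes and bounds, the most abundant called genes, up to 4 called genes of each list, the 5 genes in each direction that differed most clearly from the other mutants, and the 4 genes in each direction in which C321fs replicate 1 departed most. The report names a selection of these.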

Additional observations from a re-analysis of the deposited data

Results flagged for a closer look

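For 10 genes the effect of C321fs differed from that of the other mutants, by the test of the difference itself. These are the 5 genes in each direction with the smallest adjusted p in edgeR's quasi-likelihood test of C321fs against the mean of Splice del and A333fs, so they were chosen by that p, and the Empty libraries cancel from the difference. CD36 was higher in C321fs by 1.86 on the log2 scale, GJA1 by 1.78, DOK7 by 1.49, ACOX2 by 0.99 and DUSP4 by 0.88. CDC42EP3 differed by -2.23, NTN4 by -1.73, FBXO32 by -1.44 and RCAN1 by -1.36. DCN had a fitted difference of -8.39, which depends on the prior count because its C321fs libraries had at most 3 counts. ACOX2, a peroxisomal oxidase of branched fatty acids and bile acid intermediates, was at 28.6, 27.5 and 27.4 CPM in C321fs, 15.3, 16.3 and 15.6 CPM in Splice del, 12.2, 13 and 12.4 CPM in A333fs and 40.8, 40.0 and 39.3 CPM in Empty. FBXO32, a ubiquitin ligase of muscle wasting, was at 22.5, 21.9 and 21.8 CPM, 45.5, 46.6 and 47.9 CPM, 77.8, 77.7 and 74.8 CPM and 29.3, 28.7 and 27.5 CPM in the same order, so C321fs lay below Empty and the other mutants above it. The cause of these differences was not tested.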

How the results depend on the processing

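The counts of calls depended mainly on the fold change limit, the scaling and a few libraries. With no minimum fold change 2382 genes were called higher and 3067 lower in C321fs than in Empty, and 797 and 819 against the other mutants. A test against a fold change of 1.5 called 80 and 30, and 53 and 108 against the other mutants. Upper-quartile factors gave 163 decreases and shifted the median of all genes from 0.02 to 0.11. Removal of the GC and length trend gave 185. Leaving out 1 library gave 512 to 733 increases and 213 (without Empty replicate 2) to 552 decreases (without C321fs replicate 1), and 199 to 246 and 251 to 315 against the other mutants. With the replicate number as a block 662 genes were called higher and 337 lower, and with the block and the GC and length trend removed 458 and 188. The numbers do not pair the libraries: over 18 pairs with the same number the deviations from the group means correlated at -0.009 on average (-0.123 to 0.165). Among the named genes no call changed direction. The balance of calls against Empty did: increases outnumbered decreases with the fold change limit, and decreases outnumbered increases without it. Medians of some lists near 0 changed sign (mitosis, from 0.05 to -0.12 with the GC and length trend removed). DESeq2 called 625 higher and 354 lower, and the remaining alternatives stayed within 1.5 times of the counts reported. Depth limits genes such as CA9, EPGN and CXCL14, whose Empty level is known only as at most 3 counts per library.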

Other observations

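Small nucleolar RNAs, which guide the modification of ribosomal RNA, held many of the calls outside protein-coding genes. Of those tested, 29 were called higher (25.7%), beside 4.07% of 13110 protein-coding genes and 4.63% of all genes. Long noncoding RNAs had 66 of 824 genes called higher (8.01%) and 10 lower (1.21%), beside 4.63% and 2.26% of all genes. The libraries were counted without strand, and most small nucleolar RNAs lie inside introns of host genes, so fragments of unspliced host transcripts and of the small RNAs cannot be told apart. These classes were looked at after the values were seen.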
